A study of Mus musculus with 35 samples.

Results

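Double-stranded RNA sensing and the interferon response were examined in mouse neural progenitor cell (NPC) cultures that differ at Mettl14, which encodes a subunit of the enzyme complex that writes N6-methyladenosine (m6A) on messenger RNA. The genes were a list of 43 named sensors, adaptors, effectors, transcription factors and interferon-stimulated or antigen-presentation genes, taken by gene name from the transcript assemblies of 2 RNA-seq batches. Of the 43, 42 were named in both assemblies, among 23254 gene keys in batch 1 and 23422 in batch 3, and Rnf213 was not analysed here. Batch 1 holds 3 homozygous knockout (KO), 3 heterozygous (Het) and 3 wild-type (WT) libraries, and batch 3 holds 2 KO and 2 WT libraries, each from a line with its own number in the labels. KO cultures carry 2 deleted Mettl14 alleles, Het cultures carry 1 and WT cultures carry none. The labels describe an allele with loxP sites around exon 2 that was made in G4 embryonic stem cells, a germline deletion obtained with EIIa-Cre and a brain deletion obtained with nestin-Cre, and do not say which of the deletions the cultures have. The developmental stage is embryo, and no treatment, virus or interferon is named for any culture. Acetylation (H3K27ac) and trimethylation (H3K27me3) of lysine 27 on histone H3 were mapped in KO lines 530 and 534 and WT lines 532 and 541, which are also the lines of the batch 3 RNA, and m6A was mapped in WT cells.

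Cells detect long or unusually ended double-stranded RNA in the cytosol with the helicases MDA5 and RIG-I, which signal through MAVS on mitochondria to IRF3 and IRF7 and so to type I interferon. Secreted interferon then acts through its receptor, JAK1 and TYK2 on a complex that holds STAT2 and IRF9 and binds the interferon-stimulated response element (ISRE) of many antiviral genes. ADAR edits adenosines in cellular double-stranded RNA and so keeps the RNA of the cell itself from being sensed, while PKR, the product of Eif2ak2, halts translation when it binds such RNA.

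The libraries held 13.8 to 19.5 M fragments in named genes. Mettl14 had 21.6 ± 1.38 CPM (counts scaled to library size) in KO, 23.7 ± 0.899 in Het and 23.6 ± 1.17 in WT of batch 1 (SD, n = 3 each), and 26.5 ± 5.37 in KO and 36.6 ± 1.67 in WT of batch 3 (SD, n = 2 each). KO against WT gave log2 fold changes of −0.12 (edgeR adjusted p = 0.22) and −0.46 (adjusted p = 0.084) in batches 1 and 3, but this locus includes exons outside the deleted one, so the value does not check the labels. All 10 neural progenitor markers were present. Their summed level was 4694 to 5125 CPM in KO and 7785 to 8443 in WT of batch 1, and 5129 to 5379 in KO and 7557 to 8093 in WT of batch 3. Singly they went both ways, with 5 higher and 5 lower in KO of batch 1 and 3 higher and 3 lower in KO of batch 3 by the edgeR test. In bulk RNA, fewer cells of a type and less RNA per cell cannot be told apart. The 14 microglia markers, which mark the resident immune cells of brain, summed to 4.85 to 6.78 CPM in KO and 4.33 to 6.25 in WT of batch 1, with Itgam, C1qb, C1qc, Tyrobp and Trem2 at 0 in both groups. In batch 3 they summed to 1.73 to 1.90 CPM in KO and 2.57 to 3.24 in WT. Oligodendrocyte markers (4 of 4 in the tables) summed to 17.6 to 27.8 CPM in KO and 8.22 to 9.60 in WT of batch 1, and to 14.8 to 14.9 in KO and 8.09 to 8.85 in WT of batch 3. The 4 astrocyte markers summed to 132.0 to 307.1 CPM in KO and 212.4 to 271.3 in WT of batch 1, and to 38.4 to 53.3 in KO and 118.5 to 150.2 in WT of batch 3. Singly the astrocyte markers also went both ways by the edgeR test. In KO, 3 were higher and 1 lower of 4 tested in batch 1, and 1 higher and 1 lower of 3 tested in batch 3. The 9 fibroblast and pericyte markers summed to 15.9 to 16.4 CPM in KO and 5.19 to 5.87 in WT of batch 1, with Dcn at 0 in both groups, and to 9.50 to 18.8 in KO and 2.91 to 6.35 in WT of batch 3. The part of these cell types in the results was not tested.

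RNA of interferon beta and of several classical interferon targets was at or near the detection limit in every genotype. Ifnb1, the gene of interferon beta, had 0 fragments in each of the 13 libraries, and a count of 0 allows up to 0.212 CPM in the shallowest and 0.157 CPM in the deepest library (3 fragments, counting error only). Isg15, a ubiquitin-like modifier and among the most strongly induced targets of interferon, had 0.316, 0.400 and 0.635 CPM in KO, 0.167, 0.229 and 0.284 in Het and 0.188, 0.263 and 0.419 in WT libraries of batch 1. Its batch 3 libraries had 0.398 and 1.09 CPM in KO, against 0.187 and 0.811 in WT. KO and WT libraries overlapped in both batches, and the KO libraries of batch 1 lay above the Het libraries.

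Ifit1, which binds the 5′ end of foreign RNA, had 1.37, 0.685 and 0.635 CPM in KO, 0.167, 0.457 and 0.625 in Het and 0.627, 0.395 and 0.471 in WT of batch 1. Its KO libraries lay above the WT libraries, yet the log2 fold change of 0.87 (SE 0.47) did not pass the edgeR test (adjusted p = 0.12). In batch 3 the KO values were 0.398 and 0.402 and the WT values 0.0622 and 0.676, on either side of the KO values. Ifit3, its neighbour and partner, had 20 fragments in the 3 KO libraries, 1 in the 3 Het libraries and 7 in the 3 WT libraries of batch 1, and 5 in each group of batch 3. Oasl2, of the oligoadenylate synthetase-like family, had 36, 12 and 11 fragments in KO, Het and WT of batch 1, and 16 in KO and 12 in WT of batch 3. It passed the filter of the joint fit of both batches, where KO was higher than WT in batch 1 (1.68 on the log2 scale, edgeR adjusted p = 0.019) and not called in batch 3 (0.30). Irf7, the factor that amplifies interferon, stayed between 0 and 0.920 CPM in all 13 libraries. In the fit of batch 1 alone, Isg15, Ifit3, Oasl2 and Psmb9 were below edgeR's low-count filter and were not tested. The same held in batch 3 alone for Irf7, Ifit1, Ifit3, Ifi35, Oasl2, Psmb8 and Psmb9.

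Other genes of the list, among them the interferon-stimulated genes Ifitm2 and Ifitm3, were better expressed. Scaled to transcript length (FPKM), the order in WT of batch 1 was led by B2m at 64.0 ± 9.11 and H2-K1 at 40.3 ± 2.08, the light chain and a heavy chain of class I antigen presentation. They were followed by Ifitm2 at 34.6 ± 2.14 and Ifitm3 at 27.6 ± 4.87, membrane proteins that block virus entry, and by Irf3 at 22.3 ± 4.35 (SD, n = 3 each). B2m and H2-K1 each stood clear of the next gene by more than 1 SD, whereas Ifitm3 overlapped within 1 SD with both Ifitm2 and Irf3. The median over the 42 genes was 2.28 FPKM, against 10.2 over the 13677 genes tested in batch 1. The 13677 all passed the low-count filter, which 4 of the 42 did not, so the sets are unlike. Under 1 FPKM were 15 of the 42 and 2032 of the 13677. Among these 15 were the sensors Ifih1 at 0.491 ± 0.167 and Dhx58 at 0.331 ± 0.0660 FPKM.

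**Figure D1:**
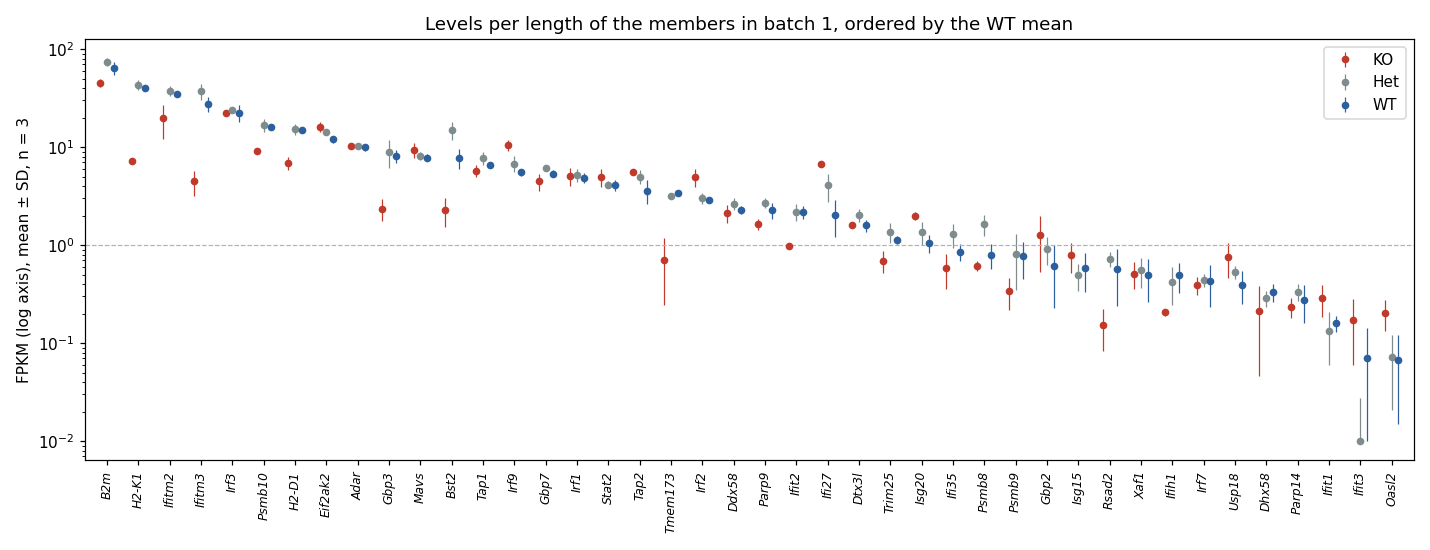
Level per length of each of the 42 genes in batch 1, ordered by the WT mean, with FPKM on a log axis (points are means of 3 libraries in KO, Het and WT, bars are SD, and the dashed line is 1 FPKM). B2m at 64.0 FPKM and H2-K1 at 40.3 lead the WT order, and the classical targets Isg15, Ifit1, Ifit3 and Oasl2 lie under 1 FPKM in every genotype of batch 1.

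RefSeq promoter windows (GRCm38.p6, from 250 bases before to 50 after a start site) were at hand for 36 of the 43 genes. An ISRE-like motif, GAAA followed by any 2 bases and GAAA, was found on either strand in 16 of them, against 3.99% of 27025 genes with a window. The gamma-interferon activated site (GAS) motif TTCNNNGAA was found in 11 of the 36, against 9.55%, and an NF-kB-like motif (either of 2 fixed decamers) in B2m only, against 0.303%. Matches of different motifs may overlap. Below are the 160 bases before the start site of 3 genes that were nearly silent or low in all genotypes (Ifit1, Isg15, Rsad2) and of 3 that were above 1 FPKM in WT and lower in KO of batch 1 (Bst2, Gbp3, B2m). They are shown because the same motif letters stand before both kinds of gene. Rsad2, under 1 FPKM in WT, was also called lower in KO of batch 1, so the kinds are set apart by level only. Capitals mark the motif matches, each strand is that of the gene, and the positions are chr19:34640729-34640888 (plus), chr4:156200819-156200978 (minus), chr12:26456453-26456612 (minus), chr8:71537473-71537632 (minus), chr3:142559884-142560043 (plus) and chr2:122147527-122147686 (plus).
Ifit1: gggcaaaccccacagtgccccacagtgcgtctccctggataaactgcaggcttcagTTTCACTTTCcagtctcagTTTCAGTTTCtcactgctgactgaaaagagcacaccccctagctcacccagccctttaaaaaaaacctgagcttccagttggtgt
Isg15: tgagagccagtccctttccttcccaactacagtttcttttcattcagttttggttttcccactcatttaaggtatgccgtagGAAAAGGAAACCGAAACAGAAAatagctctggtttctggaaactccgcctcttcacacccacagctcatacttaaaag
Rsad2: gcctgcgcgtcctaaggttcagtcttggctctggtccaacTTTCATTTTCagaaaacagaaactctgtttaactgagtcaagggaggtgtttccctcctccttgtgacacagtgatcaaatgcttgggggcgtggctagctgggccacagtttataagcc
Bst2: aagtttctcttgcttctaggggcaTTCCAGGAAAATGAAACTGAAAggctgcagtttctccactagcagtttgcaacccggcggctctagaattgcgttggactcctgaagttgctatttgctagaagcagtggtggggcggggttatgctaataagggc
Gbp3: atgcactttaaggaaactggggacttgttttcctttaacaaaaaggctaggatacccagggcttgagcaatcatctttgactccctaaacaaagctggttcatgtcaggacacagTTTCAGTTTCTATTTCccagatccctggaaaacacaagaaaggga
B2m: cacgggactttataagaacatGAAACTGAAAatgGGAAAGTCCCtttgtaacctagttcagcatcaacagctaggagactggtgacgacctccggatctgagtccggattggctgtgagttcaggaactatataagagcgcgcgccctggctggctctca
Isg15 has 3 overlapping ISRE-like matches that begin 78, 72 and 66 bases before the start, and Ifit1 has matches at 104 and 85 bases. Bst2 has ISRE-like matches at 130 and 124 bases that overlap a GAS match at 136, and Gbp3 has matches at 45 and 39 bases. In B2m the ISRE-like match at 139 bases is followed by the NF-kB-like match at 126.

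Of the 16 genes with the ISRE-like motif, 14 were tested in batch 1, of which 3 were higher (Eif2ak2, Irf2 and Stat2) and 8 lower (Ifih1, B2m, Bst2, Gbp3, Gbp7, Ifitm2, Ifitm3 and Rsad2) in KO than in WT. Among the 359 genes of the whole table with this motif that were tested, 34.0% were higher and 37.6% lower. In batch 3 Isg15 was tested and Ifit1 was not, so 14 were again tested, with 0 higher and 3 lower (Ifih1, Ddx58 and B2m), beside 16.4% and 16.4% of 336 genes. The motif count is a description of these letters, and binding was not measured.

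KO against WT was then compared for all 42 genes, each batch apart, with edgeR's quasi-likelihood test and Benjamini-Hochberg adjustment over all genes tested, at an adjusted p below 0.05. In batch 1, 38 genes passed the low-count filter and 25 of them were called, 10 higher and 15 lower in KO. That is 65.8% of those tested, where 69.3% of all 13677 genes were called in the same fit (34.3% higher and 35.0% lower), so a call was no more frequent among these genes than among all genes. The KO and WT libraries did not overlap for 24 of the 38 genes, against 73.8% of all genes. In batch 3, 35 genes passed the filter and 9 were called, 5 higher and 4 lower, or 25.7% against 31.7% of 12836 genes (17.3% higher and 14.4% lower). Libraries did not overlap for 21 of the 35, against 69.1% of all genes. The batch 3 count rests on few libraries: it was 2 when 1 of the WT libraries (number 2 in the table) was left out, and 5 with limma on log2(FPKM + 0.1).

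By role, in batch 1, the 3 sensors gave 0 higher and 1 lower, the 3 adaptors 1 and 2, the effectors Eif2ak2 and Adar 2 and 0, and the 6 transcription factors 3 and 0. The interferon-stimulated genes gave 3 higher and 6 lower of 14 tested, the 3 guanylate-binding proteins 0 and 2, and antigen presentation 1 and 4 of 7 tested. Over all genes 34.3% were higher and 35.0% lower in this fit, and no role was tested as a set. The median log2 fold change was −0.13 over the 38 genes and 0.00 over all genes.

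Of the 34 genes tested in both batches, 8 were called in the same direction in both. Mavs, Irf9, Isg20, Ifi27 and Tap2 were higher in KO, and Ifih1, B2m and H2-K1 were lower. Over 12357 genes tested in both batches, 14.8% were called higher and 12.6% lower in both. None of the 34 was called in opposite directions, against 0.607% of all genes. The joint fit of both batches, made for the difference between them, shares the spread over all libraries and moved some calls near the threshold. In it Eif2ak2, Bst2, Ifit2, H2-D1, Ifitm3 and Irf1 also passed in batch 3 (adjusted p = 0.024, 0.024, 0.048, 0.024, 0.025 and 0.045, in that order). Adar, Gbp7, Usp18 and Parp9 did not pass in batch 1 (adjusted p = 0.076, 0.059, 0.052 and 0.072, in that order).

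**Figure D2:**
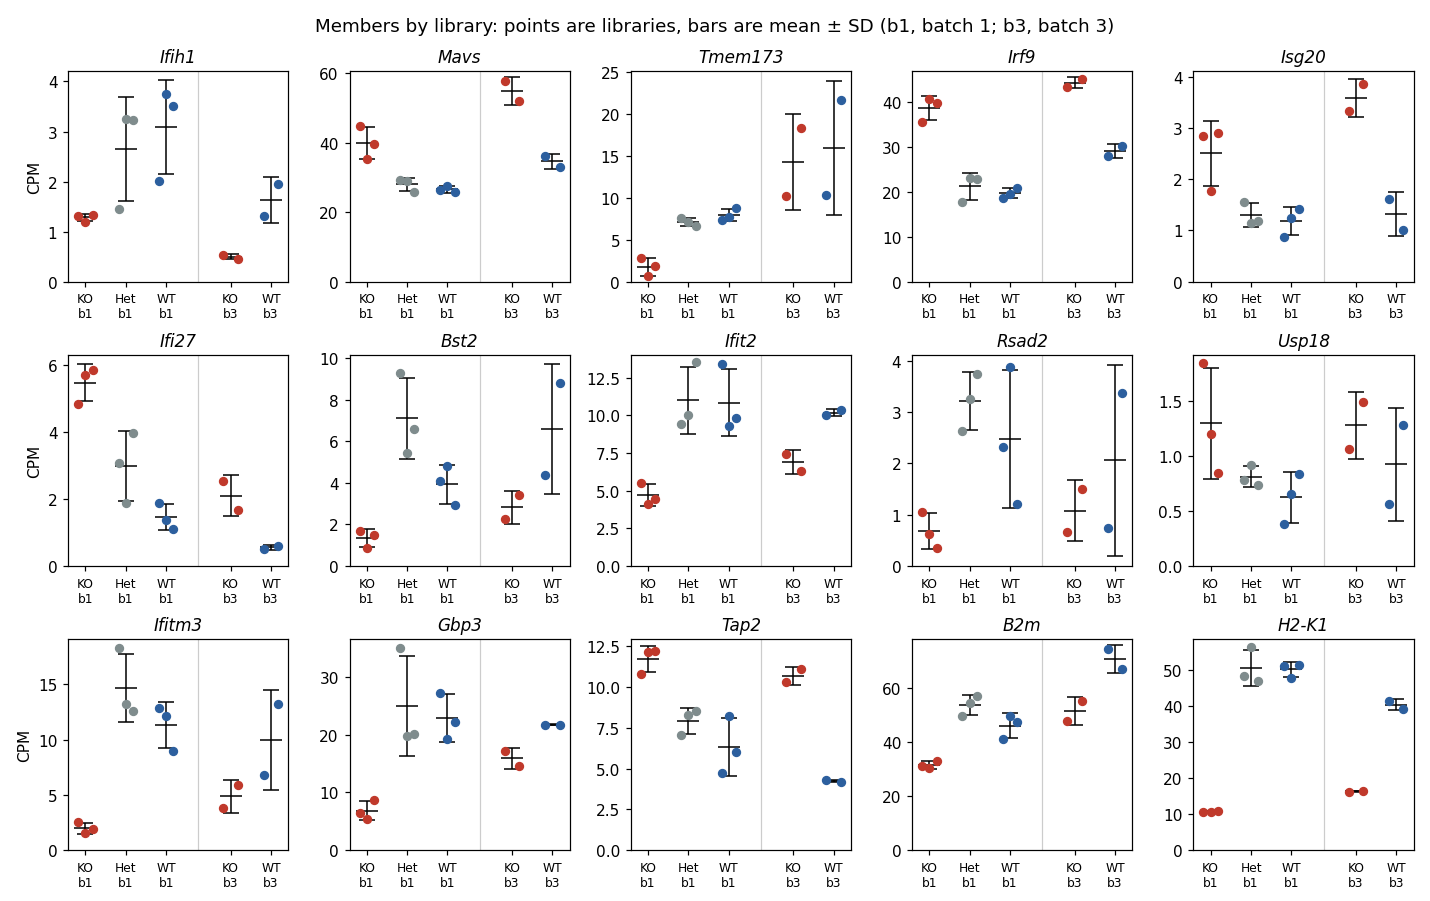
CPM of 15 of the genes given by library, one panel each, with KO, Het and WT of batch 1 (b1) and KO and WT of batch 3 (b3) from left to right (points are libraries, bars are mean ± SD). In batch 1, H2-K1 averages 10.6 ± 0.143 CPM in KO libraries and 50.3 ± 2.07 CPM in WT libraries, while Tmem173 is low only in the KO libraries of batch 1.

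**Figure D3:**
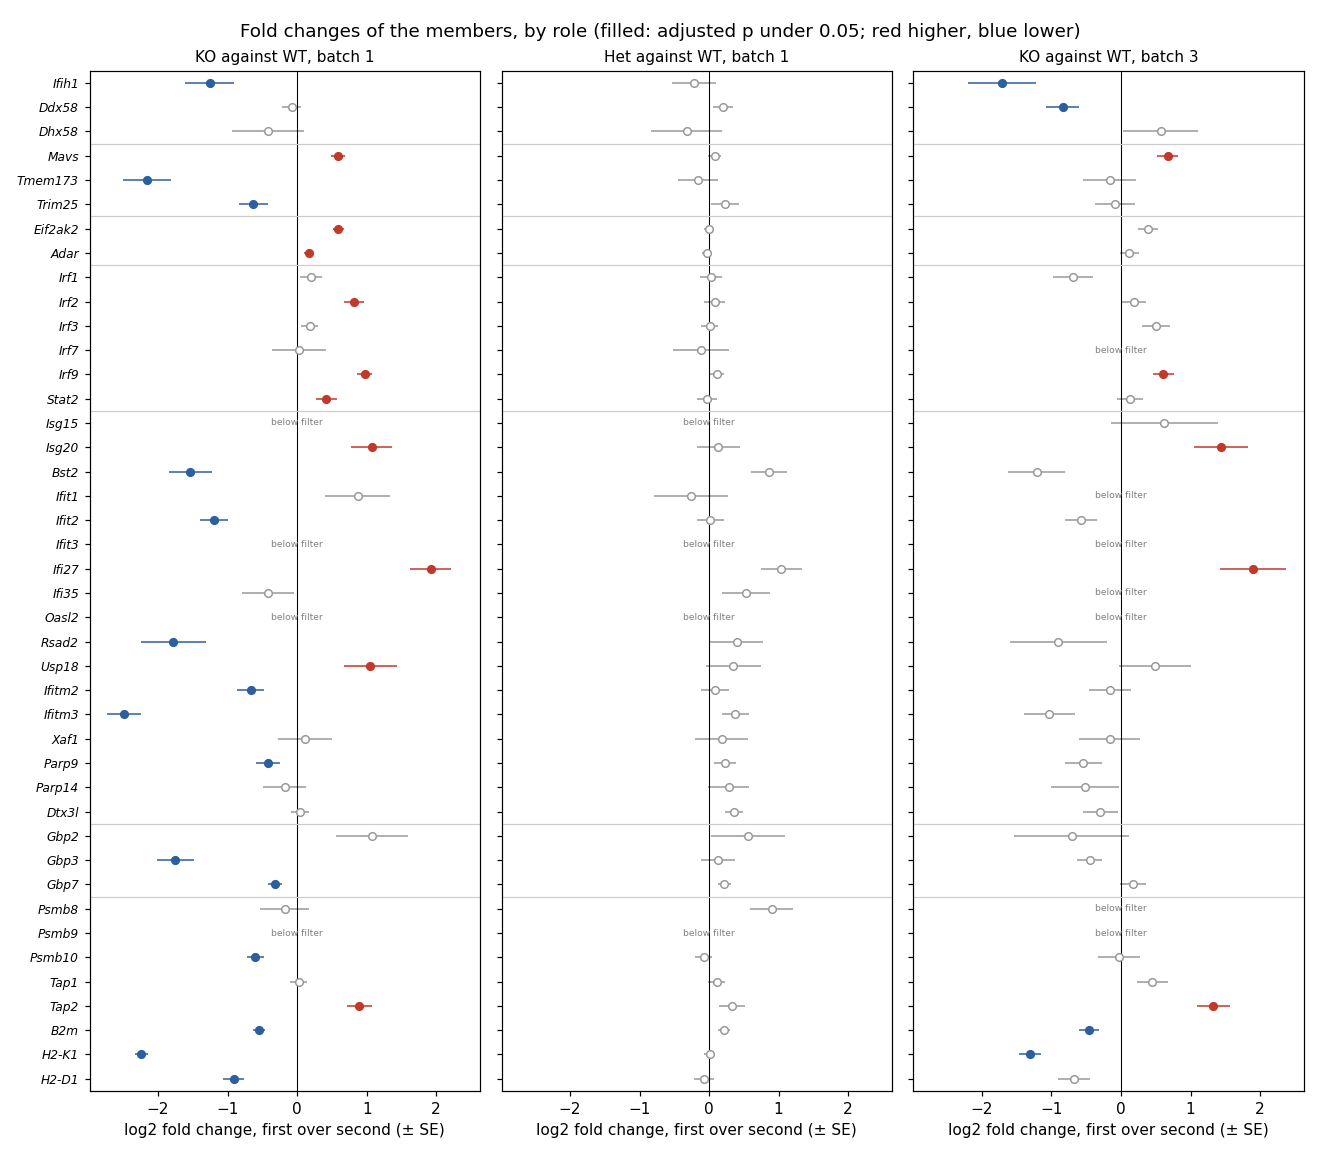
Log2 fold change with its SE for each of the 42 genes, grouped by role, in KO against WT of batch 1, Het against WT of batch 1 and KO against WT of batch 3 (filled points have an edgeR adjusted p under 0.05, red higher and blue lower, and genes without a point were below the low-count filter). The counts of filled points are 25, 0 and 9.

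Among sensors and adaptors, Ifih1 was lower and Mavs higher in KO of both batches, and Tmem173 and Trim25 were lower in KO of batch 1. Ifih1, which encodes the sensor MDA5 (mm10 chr2:62595793-62646255, minus strand), had 1.32, 1.20 and 1.34 CPM in KO, against 2.01, 3.75 and 3.51 in WT of batch 1. The batch 3 libraries had 0.531 and 0.460 CPM in KO, against 1.31 and 1.96 in WT. The KO libraries lay below the WT libraries in both batches. The log2 fold changes were −1.26 (SE 0.35, edgeR adjusted p = 0.0072) and −1.71 (SE 0.49, adjusted p = 0.031), but the level is low, with 16 fragments in the KO and 50 in the WT libraries of batch 3. The batch 3 call was lost whichever library was left out (adjusted p = 0.053 to 0.26).

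Ddx58, which encodes RIG-I, had 10.0, 11.1 and 13.7 CPM in KO and 11.2, 12.8 and 12.8 in WT of batch 1, and these libraries overlapped. Batch 3 libraries showed 7.30 and 5.86 CPM in KO and 12.6 and 10.9 in WT, or −0.84 on the log2 scale (SE 0.24, edgeR adjusted p = 0.029), which was lost without either WT library (0.075 and 0.19). The difference between the batches in the KO effect, 0.80 (SE 0.25), did not pass the interaction test (adjusted p = 0.053). Dhx58, which encodes LGP2, a relative of RIG-I that lacks its signalling domain, was not called in either batch, and its libraries overlapped in both.

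Mavs, the mitochondrial adaptor of both sensors (mm10 chr2:131234063-131253037, plus strand), had 44.6, 35.4 and 39.5 CPM in KO, against 26.3, 27.6 and 25.7 in WT of batch 1. Levels in batch 3 were 57.8 and 52.0 CPM in KO, against 36.1 and 33.0 in WT. Every KO library was above every WT library, by log2 fold changes of 0.59 (SE 0.097, edgeR adjusted p = 0.00024) and 0.67 (SE 0.15, adjusted p = 0.012). On the deposited FPKM the difference was smaller, 0.23 to 0.26 in batch 1 on the log2 scale with pseudocounts of 0.1 and 1 (limma adjusted p = 0.12 for both), so this call depends on the unit. The batch 3 call was also lost on FPKM (0.45 to 0.48, limma adjusted p = 0.13 to 0.14) and without WT library 1 or 2 (edgeR adjusted p = 0.072 and 0.15).

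Tmem173 encodes STING, the adaptor of cytosolic DNA sensing. It had 2.84, 0.628 and 1.83 CPM in KO, against 7.40, 7.76 and 8.75 in WT of batch 1, or −2.16 on the log2 scale (SE 0.34, edgeR adjusted p = 0.00022). In batch 3 it had 10.2 and 18.3 CPM in KO, against 10.3 and 21.6 in WT, where the groups overlapped (−0.16, SE 0.38, adjusted p = 0.78). The difference of the effects, −1.96 (SE 0.62), missed the threshold of the interaction test (adjusted p = 0.058). Trim25, a ubiquitin ligase that acts on RIG-I, was lower in KO of batch 1 (−0.63, SE 0.21, edgeR adjusted p = 0.019) and not called in batch 3 (−0.09).

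Both effectors of double-stranded RNA were higher in KO of batch 1. Eif2ak2, which encodes PKR, differed by 0.59 on the log2 scale (SE 0.077, edgeR adjusted p = 3.6e-05) in batch 1 and by 0.39 (SE 0.14, adjusted p = 0.066) in batch 3, and its locus is joined with Gm6548 in the assemblies. Adar was 1.13-fold higher in batch 1 (adjusted p = 0.036), and the call was lost under DESeq2, under limma on FPKM, without a filter, and without any 1 of 5 libraries (all 3 KO libraries and WT libraries 1 and 2; adjusted p = 0.064 to 0.13). The exons of Adar, which lies 33.6 Mb from Mettl14 on chromosome 3, overlap those of Chrnb2 on the opposite strand, and the strandedness of the counting is not given in the sources used here.

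Among the transcription factors, Irf9, the DNA-binding subunit of the interferon-activated STAT complex, was the clearest. It had 35.5, 40.6 and 39.7 CPM in KO, against 18.6, 19.5 and 20.8 in WT of batch 1. The batch 3 libraries had 43.4 and 45.1 CPM in KO, against 28.0 and 30.1 in WT. The groups did not overlap in either batch, and the log2 fold changes were 0.97 (SE 0.11, edgeR adjusted p = 1.4e-05) and 0.61 (SE 0.15, adjusted p = 0.018). The batch 3 call was lost on FPKM (limma adjusted p = 0.34) and without either WT library (adjusted p = 0.12 and 0.2). The assemblies join Irf9 and Rnf31 into 1 locus, so the value cannot be split between them.

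Its partner Stat2 was 1.34-fold higher in KO of batch 1 (edgeR adjusted p = 0.027) with overlapping libraries, and was not called in batch 3 (0.13, SE 0.19). Irf2, which can antagonise Irf1, was 1.77-fold higher in batch 1 (adjusted p = 0.00038) and not called in batch 3 (0.19, SE 0.17). Irf1 and Irf3 were not called in either batch fitted apart. Irf7 was not called in batch 1 and was below the low-count filter in batch 3. Irf3, the factor activated downstream of MAVS, had log2 fold changes of 0.18 (SE 0.12) and 0.50 (SE 0.20).

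**Figure D4:**
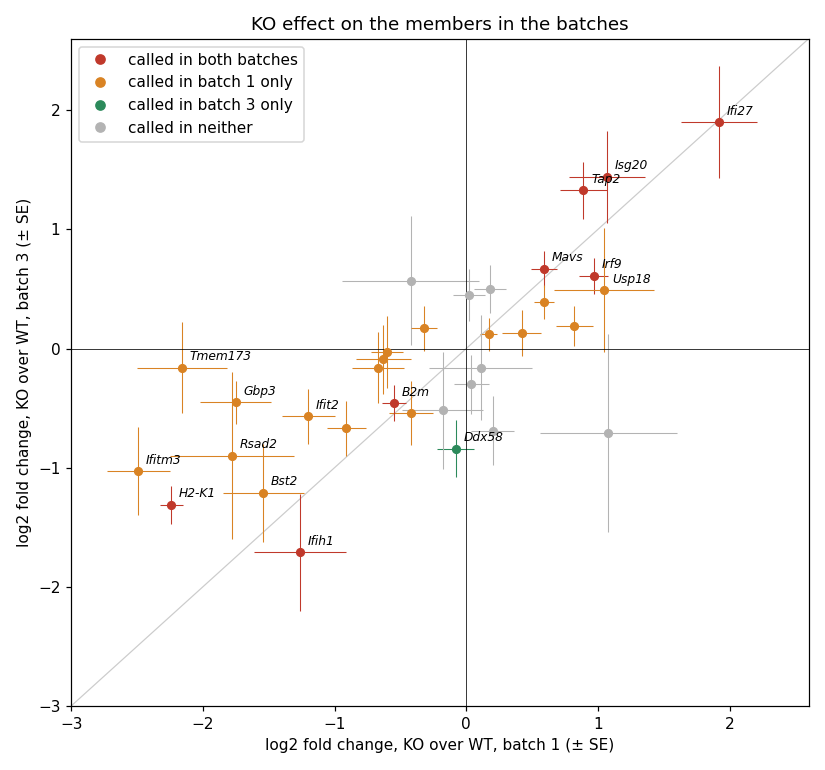
Log2 fold change of KO over WT in batch 1 (horizontal) against batch 3 (vertical) for the 34 genes tested in both, with SE bars, coloured by the batches in which they were called (the grey diagonal is equality). The 8 genes called in both batches lie at the upper right or lower left, and H2-K1 and Gbp3 are those whose effect differed by the interaction test.

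The interferon-stimulated genes were called in both directions, as were all genes (34.3% higher and 35.0% lower in batch 1). Ifi27, a mitochondrial protein gene (mm10 chr12:103434189-103440245, plus strand), had 4.84, 5.71 and 5.86 CPM in KO, against 1.88, 1.38 and 1.10 in WT of batch 1. Batch 3 libraries showed 2.52 and 1.67 CPM in KO, against 0.498 and 0.608 in WT. The KO libraries lay above the WT libraries in both batches, 3.77-fold (SE of the log2 value 0.29, edgeR adjusted p = 0.00011) and 3.74-fold (SE 0.47, adjusted p = 0.018). The batch 3 call was lost under DESeq2 (adjusted p = 0.051) and without KO library 1, WT library 1 or WT library 2 (0.056 to 0.1). The Het libraries of batch 1 were between them, at 3.07, 1.89 and 3.98 CPM. Ifi27 overlaps Ifi27l2a on the opposite strand, so fragments of the pair may be shared.

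Isg20, an exonuclease that degrades RNA, had 2.84, 1.77 and 2.89 CPM in KO, against 0.878, 1.25 and 1.41 in WT of batch 1. Levels in batch 3 were 3.32 and 3.85 CPM in KO, against 1.62 and 1.01 in WT. KO libraries were above WT libraries throughout (1.07, SE 0.29, edgeR adjusted p = 0.0059, and 1.44, SE 0.39, adjusted p = 0.025, on the log2 scale). Without WT library 2 the batch 3 call was lost (1.15, adjusted p = 0.17). Usp18, which removes ISG15 from proteins and damps the interferon receptor, had 1.84, 1.20 and 0.847 CPM in KO, against 0.376, 0.657 and 0.838 in WT of batch 1, a narrow gap (1.05, SE 0.38, adjusted p = 0.027). In batch 3 its KO values of 1.06 and 1.49 CPM overlapped the WT values of 0.560 and 1.28. Leaving out 1 library ended the batch 1 call of Usp18 in 3 cases, namely KO library 1, WT library 1 or WT library 2 (adjusted p = 0.058 to 0.14), as did DESeq2 (0.058).

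Other antiviral genes were lower in KO. Ifitm3, which traps viruses in endosomes, had 2.53, 1.54 and 1.91 CPM in KO, against 12.9, 12.1 and 8.96 in WT of batch 1, and this was 5.61-fold lower (SE of the log2 value 0.24, edgeR adjusted p = 3.5e-06). In batch 3 it had 3.79 and 5.92 CPM in KO, against 6.78 and 13.2 in WT. These did not overlap, and the log2 fold change of −1.03 (SE 0.37) missed the threshold (adjusted p = 0.065). DESeq2 (0.044) and the fit without a filter (0.025) called it, and it was −1.44 without WT library 1 (adjusted p = 0.003) and −0.48 without WT library 2 (adjusted p = 0.52). Ifitm2, its close relative on the same chromosome, was 1.59-fold lower in batch 1 (adjusted p = 0.013), and reads of the near-identical genes may have been shared between them.

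Bst2 encodes tetherin, which holds budding viruses at the cell surface. It had 1.69, 0.857 and 1.48 CPM in KO, against 4.08, 4.80 and 2.93 in WT of batch 1 (−1.54, SE 0.31, edgeR adjusted p = 0.0011). The batch 3 libraries had 2.26 and 3.39 CPM in KO, against 4.36 and 8.79 in WT (−1.21, SE 0.41, adjusted p = 0.052). In both batches all KO libraries were lower. DESeq2 and 4 other settings put the batch 3 difference past the threshold (adjusted p = 0.017 to 0.048), and without WT library 2 it was −0.62 (adjusted p = 0.45).

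Ifit2, an RNA-binding relative of Ifit1, had 5.53, 4.11 and 4.45 CPM in KO, against 13.4, 9.27 and 9.85 in WT of batch 1 (−1.20, SE 0.20, edgeR adjusted p = 0.00026). Batch 3 libraries showed 7.44 and 6.32 CPM in KO, against 10.0 and 10.3 in WT (−0.57, SE 0.23, adjusted p = 0.093). So Ifit2 was lower in all KO libraries while its neighbours Ifit1 and Ifit3 were near 0. Rsad2, which encodes viperin, had 1.05, 0.628 and 0.353 CPM in KO, against 2.32, 3.88 and 1.21 in WT of batch 1 (−1.78, SE 0.47, adjusted p = 0.0056). In batch 3 its KO values of 0.664 and 1.49 CPM overlapped the WT values of 0.747 and 3.38. Parp9 was 1.34-fold lower in batch 1 (adjusted p = 0.042) with overlapping libraries, and its exons overlap those of its partner Dtx3l on the opposite strand.

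Gbp3, Gbp7 and Gbp2 encode guanylate-binding proteins that attack intracellular pathogens, and lie 19.1 to 19.2 Mb from Mettl14 on chromosome 3. For genes linked in this way, the deletion and other DNA that travels with the targeted chromosome cannot be told apart. Gbp3 (mm10 chr3:142560052-142573212, plus strand) had 6.48, 5.42 and 8.68 CPM in KO, 35.1, 19.8 and 20.2 in Het and 27.4, 19.2 and 22.2 in WT of batch 1. Levels in batch 3 were 17.2 and 14.7 CPM in KO, against 21.8 and 21.7 in WT. KO libraries were lowest in both batches. Against WT the log2 fold changes were −1.75 (SE 0.27, edgeR adjusted p = 0.00033) and −0.45 (SE 0.18, adjusted p = 0.09).

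The effects of the batches on Gbp3 differed by −1.25 (SE 0.28, interaction adjusted p = 0.019). Gbp7 was 1.25-fold lower in batch 1 (adjusted p = 0.012) and not called in batch 3, where its log2 fold change was 0.17 (SE 0.19). Gbp2 was not called in either batch.

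Class I antigen presentation genes were also called in both directions. H2-K1, a class I heavy chain (mm10 chr17:33996012-34000333, minus strand), had 10.6, 10.4 and 10.7 CPM in KO, 48.5, 56.4 and 47.1 in Het and 51.3, 47.9 and 51.6 in WT of batch 1. In batch 3 it had 16.3 and 16.4 CPM in KO, against 41.5 and 39.3 in WT. The KO libraries were tightly grouped and far below the others. The falls from WT were 4.74-fold (SE of the log2 value 0.089, edgeR adjusted p = 2.3e-08) and 2.47-fold (SE 0.16, adjusted p = 0.001), and they differed between batches by −0.90 on the log2 scale (SE 0.14, interaction adjusted p = 0.0039).

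B2m, the light chain that every class I molecule needs (mm10 chr2:122147687-122153082, plus strand), had 31.0, 30.3 and 33.0 CPM in KO, against 40.9, 49.6 and 47.4 in WT of batch 1. The batch 3 libraries had 47.7 and 54.9 CPM in KO, against 74.2 and 67.0 in WT. The groups were apart in both batches, with log2 fold changes of −0.55 (SE 0.090, edgeR adjusted p = 0.00022) and −0.46 (SE 0.15, adjusted p = 0.044), the second of which was lost under DESeq2 and limma (0.051 to 0.12) and without either WT library (0.19 and 0.38). H2-D1, a second heavy chain whose locus is joined with H2-L, was 1.88-fold lower in batch 1 (adjusted p = 0.00019) and 1.60-fold lower in batch 3 (adjusted p = 0.059), where the libraries did not overlap. Class I genes are near-identical to each other in places, so the split of reads between H2-K1, H2-D1 and other class I loci is uncertain.

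Tap2, a subunit of the pump that loads peptides onto class I molecules (mm10 chr17:34204479-34216321, plus strand), went the other way. It had 10.8, 12.2 and 12.2 CPM in KO, 7.03, 8.29 and 8.52 in Het and 4.70, 8.22 and 6.02 in WT of batch 1. Batch 3 libraries showed 10.3 and 11.1 CPM in KO, against 4.29 and 4.19 in WT. All KO libraries were above the others. Against WT the log2 fold changes were 0.89 (SE 0.18, edgeR adjusted p = 0.0011) and 1.33 (SE 0.24, adjusted p = 0.005). Against Het the value was smaller, 0.56 (SE 0.18, edgeR adjusted p = 0.016). Tap1, its partner in the pump, was not called in either batch (0.02, SE 0.12, and 0.45, SE 0.22). Of the immunoproteasome subunits, Psmb10 was 1.51-fold lower in KO of batch 1 (adjusted p = 0.0012) and not called in batch 3 (−0.03), Psmb8 was not called in batch 1 and Psmb9 was below the filter in both.

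In KO against WT, H2-K1 and Tap2 were called under every alternative setting and with any 1 library left out, in each batch. In batch 1, 18 of the 25 calls held under each alternative, and Mavs, Adar, Stat2, Gbp7, Usp18, Trim25 and Parp9 lost theirs under at least 1.

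Heterozygous cultures showed no called difference from WT. In Het against WT, 0 of the 38 genes were called by edgeR, where 0.0146% of all genes (2 of 13677) were, and 6 of the 38 had an unadjusted p under 0.05. DESeq2 and limma on FPKM also called 0. The libraries were apart for 5 genes (Bst2, Ifi27, Gbp7, Psmb8 and Dtx3l), with Het above WT in each, where 7.41% of all genes had Het above and 7.42% had Het below. A gene missing the threshold is not shown to be equal. Ifi27 had the largest Het value, 2.98 ± 1.05 CPM in Het and 1.45 ± 0.396 in WT (SD, n = 3 each), or 1.04 on the log2 scale (SE 0.30, edgeR adjusted p = 0.51), with libraries that just failed to overlap. Bst2 had 9.27, 5.43 and 6.59 CPM in Het, above its 3 WT libraries (0.86, SE 0.26, adjusted p = 0.53), the opposite side from its KO libraries.

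KO against Het called 27 of 38 genes, or 71.1% against 68.0% of all genes. Of the 38, 9 were higher (23.7%, against 33.8% of all genes) and 18 lower (47.4%, against 34.2%). The KO libraries are shared with the comparison against WT. Ifitm3 was 7.30-fold lower (edgeR adjusted p = 1.2e-06), Bst2 5.27-fold lower (adjusted p = 3.1e-05) and H2-K1 4.77-fold lower (adjusted p = 2.2e-08) in KO than in Het. Psmb8, Ifi35 and Dtx3l were lower in KO than in Het without a call against WT, and Usp18 was called against WT and not against Het. Of the 27 calls, 18 held under each alternative, and 9 were lost under at least 1, among them Dtx3l (6 left-out libraries and 6 other settings, adjusted p = 0.052 to 0.14) and Ifi35 (3 left-out libraries, DESeq2 and the fit of the 2 groups alone). Another was Tap2, lost without Het library 1 (0.47, edgeR adjusted p = 0.056) and on FPKM (0.14 to 0.17, limma adjusted p = 0.46 to 0.47).

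The rest of the pathway was read from a list of 134 further genes, of which 131 were in the tables. In batch 1, 92 were tested, and 33 were higher and 24 lower in KO than in WT (35.9% and 26.1%), with a median log2 fold change of 0.09. In batch 3, 82 were tested, and 16 were higher (19.5%) and 9 lower. Over all genes 34.3% were higher and 35.0% lower in batch 1, and 17.3% and 14.4% in batch 3, so the shares called higher were near those of all genes. Het against WT called 0 of 92. Among ligands, receptors and kinases, Ifnar1, a chain of the type I interferon receptor, was higher in both batches (0.18, SE 0.053, edgeR adjusted p = 0.0099, and 0.47, SE 0.13, adjusted p = 0.028). Ifnar2 and Tyk2 were not called in either batch, and Jak1 was higher in batch 1 only (0.46, adjusted p = 2.7e-05, against 0.22, adjusted p = 0.24, in batch 3).

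Of genes called in the same direction in both batches, those with the largest changes were on both sides. Mb21d1, which encodes the cytosolic DNA sensor cGAS that signals to STING, fell by 2.84 (SE 0.27, edgeR adjusted p = 3.7e-06) in batch 1 and by 1.94 (SE 0.23, adjusted p = 0.001) in batch 3 on the log2 scale. Nmi, a partner of STAT proteins, fell by 2.18 and by 1.83 (adjusted p = 1.4e-06 and 0.0053), and Herc6, the ligase that attaches ISG15 in mouse, fell by 1.48 and by 1.47 (adjusted p = 3.9e-06 and 0.006). Higher in KO were Gbp9 (2.63 and 1.44, adjusted p = 2.2e-05 and 0.026), Rtp4 (2.47 and 2.01, adjusted p = 0.00013 and 0.023), the MAVS inhibitor Nlrx1 (0.80 and 2.27, adjusted p = 0.00017 and 0.00056), the IRF3 kinase gene Ikbke (0.79 and 1.92, adjusted p = 0.014 and 0.0062) and the adaptor Tradd (1.46 and 1.32, adjusted p = 3.5e-06 and 0.0082). The KO effect on Nlrx1 differed between batches by −1.43 (SE 0.25, interaction adjusted p = 0.0068). Of the 42 genes, 2 of 40 tested had such a difference, Gbp3 and H2-K1, or 5.0% against 14.4% of 13589 genes (6.5% with a higher and 7.87% with a lower log2 fold change in batch 1).

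Chromatin at the start sites was compared by presence of a peak within 1 kb, as called by the authors in each line against its own input, with no test for 2 lines a group. H3K27ac, a mark of active promoters, was found at 34 and 37 of the 42 genes in KO lines 530 and 534 and at 36 and 34 in WT lines 532 and 541, where the shares of all 13222 genes were 89.7%, 91.5%, 92.4% and 91.5%. It was present in all 4 lines at 33 genes (78.6%, against 88.0% of all genes). Isg15, Ifit1, Ifit3 and Ifi27 had none in any line (9.5%, against 5.82%). The 13222 genes all passed the batch 3 low-count filter, which 7 of the 42 did not. Of these 7, Irf7, Ifit1, Ifit3, Ifi35 and Oasl2 lacked the mark in at least 1 line, so the shares compare unlike sets. No gene of the list had the mark in both lines of 1 genotype and in neither line of the other, against 0.159% of all genes for KO only and 0.703% for WT only. H2-K1, B2m, Ifitm3, Bst2 and Gbp3, all lower in RNA in KO of batch 1, had an H3K27ac peak in every line. Of the genes called higher there, Mavs, Eif2ak2, Adar, Irf2, Irf9, Stat2, Isg20, Usp18 and Tap2 also had a peak in every line. Ifi27, also called higher, had none in any line. In the RNA of batch 3, which is from these lines, H2-K1 and B2m were called lower. Ifitm3, Bst2 and Gbp3 were not called there when that batch was fitted apart. Presence of a peak does not measure the amount of the mark.

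H3K27me3, the mark laid by Polycomb complex 2, lay at 6 genes in all 4 lines (Psmb8, Psmb9, Tap1, H2-K1, H2-D1 and Parp14), or 14.3% against 7.76% of all genes. Psmb8 and Psmb9 were below the batch 3 low-count filter, which all genes of the 7.76% share passed. All 6 also had H3K27ac in all 4 lines, as did 88.0% of all genes. The share of all genes with both marks in all 4 lines was not counted. Parp14 apart, these genes are on chromosome 17, and Psmb9 and Tap1 start so close together that their windows share peaks. Over H2-K1 the peak was 1919 and 1469 bases wide in KO lines 530 and 534, and 1865 and 1917 bases wide in WT lines 532 and 541. Trim25 had the mark in KO 530, KO 534 and WT 532, and Tap2 in KO 534 only. No gene of the list had it in both lines of 1 genotype alone, against 1.24% of all genes for KO only and 0.522% for WT only. With a −log10 q of at least 5 in each line, 0 of the 42 genes kept H3K27me3 and 16 kept H3K27ac in all 4 lines. The shares of all genes at this cut were not counted.

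**Figure D5:**
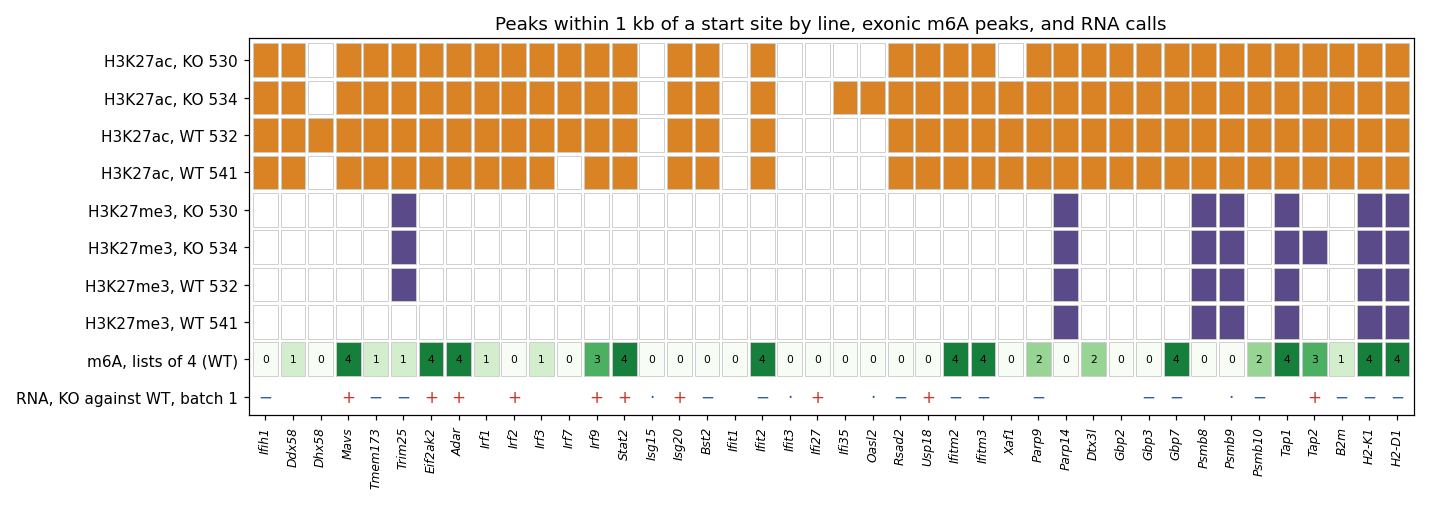
Peaks within 1 kb of a start site by line (H3K27ac orange, H3K27me3 purple, white for none), the number of the 4 WT m6A lists with an exonic peak (green), and the batch 1 RNA call of KO against WT (plus higher, minus lower, dot below the filter) for the 42 genes, grouped by role. Isg15, Ifit1, Ifit3 and Ifi27 have no H3K27ac peak in any line, and the 6 genes with H3K27me3 in all lines carry both marks.

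m6A was mapped in WT cells by immunoprecipitation (IP) of methylated RNA, and the 4 peak lists combine 2 IP libraries with 2 inputs, so they are not independent. An exonic peak was present in all 4 lists for 11 of the 42 genes (26.2%, against 41.8% of 14250 genes), and in at least 1 list for 22 (52.4%, against 65.8%). The 14250 genes all passed the batch 1 low-count filter, which 4 of the 42 did not. Among the 38 that did, 11 (28.9%) had a peak in all 4 lists. Singly, the lists of IP 4 held 17 genes against input 1 and 16 against input 2 (54.7% and 52.8% of all genes), and those of IP 3 held 14 and 15 (54.6% and 51.5%). Genes with m6A in all lists were among the better expressed. Of the 18 genes under 5 CPM in WT of batch 1 none had m6A in all lists (4.46% of all genes under 1 CPM and 18.1% of those from 1 to 5 CPM had it), 6 of 16 genes from 5 to 20 CPM had it (43.2%), and 5 of 8 genes at 20 CPM or more (51.2%).

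The 11 were Mavs, Eif2ak2, Adar, Stat2, Ifit2, Gbp7, Tap1, H2-K1, H2-D1, Ifitm2 and Ifitm3. In Mavs the peaks of all lists lay in exon 6 of 7 and in the last exon. Adar had peaks in its first exon, in exon 2 of 15 and in the last exon in all 4 lists, and was the gene that kept a peak in every list at a −log10 q of at least 5. Eif2ak2 and Gbp7 had peaks in their first and last exons, Stat2 and Ifit2 in the last exon, Tap1, Ifitm2 and Ifitm3 in the first exon, and H2-K1 and H2-D1 in exon 2 of 8. In KO of batch 1 these 11 were 4 higher (Mavs, Eif2ak2, Adar and Stat2) and 6 lower (Ifit2, Gbp7, H2-K1, H2-D1, Ifitm2 and Ifitm3), beside 43.6% higher and 30.1% lower of the 5954 genes with m6A in all lists. In batch 3 they were 1 higher (Mavs) and 1 lower (H2-K1), beside 24.5% and 12.7% of 5917 genes.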

How the data were processed

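RNA of 13 libraries, histone marks of 4 lines and m6A of WT cells were analysed from the deposited files. Per the file headers the RNA tables hold estimated counts (raw fragments per locus) and FPKM scaled by the authors. Per the submitters' processing notes TopHat2 2.1.0, Cufflinks and Cuffdiff, and for peaks Bowtie2 2.3.1 and MACS2, were used on mm10. The deposited peak lists give a fold enrichment (ratio), −log10 p and q values and a score, and no depth. The batch 2 table equals the batch 1 table byte for byte, so its 6 libraries were not analysed here.

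Estimated counts were rounded, then added up where 1 symbol had several loci, loci joining genes were kept, and each batch was fitted with edgeR 4.0.16 (TMM factors 0.972 to 1.04, default low-count filter, robust quasi-likelihood F test, two-sided, Benjamini-Hochberg over all genes). Libraries are numbered in the tables without a link to a line, and p-values measure the spread between them. CPM use TMM sizes. DESeq2 1.42.0, limma 3.58.1 on log2(FPKM + 0.1) and log2(FPKM + 1), other scalings, filters and leaving out each library were alternatives. SEs follow from the log2 fold change and the F statistic. Scripts were tested on simulated data. The members, lists and tests were chosen with earlier results of these data known. Every-library values are given for members called in the same direction in both batches, called in batch 1 with an absolute log2 fold change of at least 1, or differing between batches. A few near-silent genes and Ddx58 were added after their values were seen. Of the other pathway genes, the 8 largest called in both batches and 4 receptor and kinase genes are named, and 1 further gene of that list is not reported here.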

Additional observations from a re-analysis of the deposited data

Results flagged for a closer look

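The KO effect on 2 genes differed between batches by the interaction test in edgeR (KO and WT libraries of batches 1 and 3, adjusted over 13589 genes). H2-K1 was lower in KO in both batches, by −2.24 in batch 1 and −1.34 in batch 3 in this fit, a difference of −0.90 (SE 0.14, adjusted p = 0.0039). Every KO library was below every WT library in both batches. For Gbp3 the values were −1.74 and −0.49, a difference of −1.25 (SE 0.28, adjusted p = 0.019), which was no longer called when either WT library of batch 3 was left out (−1.27 in both cases, adjusted p = 0.056 and 0.068). Batch 1 and batch 3 were also quantified on different assemblies, and the part of this in the differences was not tested.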

How the results depend on the processing

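No paired analysis was possible because the library numbers in the tables are tied to no line, litter or day. With limma on log2(FPKM + 0.1), 6 members were higher in KO than in WT of batch 1 and 3 were higher in KO than in Het, and batch 3 gave 5 calls, 3 higher and 2 lower. With log2(FPKM + 1), 4 were higher in KO than in Het, and batch 3 again gave 5 calls, 3 higher and 2 lower. Without a low-count filter 7 were lower in batch 3. With a −log10 q of at least 5, H3K27ac lay at 16 genes in all lines and at 18 in both KO lines, H3K27me3 at 0 in all lines, 0 in both KO lines and 0 in both WT lines, and m6A on 1. Shares of all genes at this cut were not counted. At least 100 bases of overlap with exons left 6 genes with m6A, and a peak in any 1 list gave 22. Leaving out 1 library gave 20 to 26 calls in KO against WT of batch 1, 0 in Het against WT, 23 to 28 in KO against Het, 2 to 12 in KO against WT of batch 3 (higher 1 to 7, lower 1 to 5; the 2 without WT library 2 were Tap2 and H2-K1) and 1 to 8 differences between batches (8 without KO library 1 of either batch). A lone batch 3 library is then assumed to vary like the others. The sign turned for Tap1 in KO against Het (−0.17 to 0.01, positive without KO library 2), Gbp7 in batch 3 (−0.07 without KO library 1, up to 0.38) and Rsad2 in batch 3 (0.54 without WT library 2, down to −1.63). Of the member log2 fold changes, 601 of the values under other settings kept their side of the threshold, 50 lost and 14 gained a call. The cause was not tested. Low counts limit Isg15, Ifit1, Ifit3, Oasl2, Irf7 and Psmb9, and the peak lists give no depth.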
